A study of Sus scrofa with 23 samples.

Results

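The genes described here code for proteins of the slow, oxidative muscle fibre: MYH7, MYL2, MYL3, TNNI1, TNNT1, TNNC1, TPM3, MYOZ2 and CSRP3 of the contractile apparatus, and MB, which codes for the oxygen-binding protein myoglobin. Non-control probes of the array were taken where their gene name was one of these 10 symbols or where their description gave the symbol in parentheses. This rule found 21 probes of 7 genes among 43603 probes: 8 for MYH7, 4 each for TNNT1 and TPM3, 2 for TNNI1 and 1 each for TNNC1, CSRP3 and MB. MYL2 and MYOZ2 stood on the array under older names, MLC2V and calsarcin 1, and were added through the RefSeq accession of their probes, with 2 and 11 probes. No probe was matched to MYL3, which is not analysed here. All 34 probes of the 9 genes were well enough above background to be kept.

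The study measured RNA of Longissimus muscle from 23 pigs at 115 kg body weight, 1 array per pig. The pigs were labelled low or high in residual feed intake (RFI), a measure of how much more or less an animal eats than its body size and production would predict. The 7 low-RFI pigs (RFIneg) and 8 high-RFI pigs (RFIpl) were fed ad libitum, and the 8 restricted pigs (RFIplR) were high-RFI pigs given feed at the level that the low-RFI pigs ate. Low-RFI and high-RFI pigs therefore differed in RFI class and in intake together, restricted and high-RFI pigs in feeding within 1 class, and low-RFI and restricted pigs in class at a shared feeding level. The labels gave no other treatment, age or sex. Each array was a separate pig, so the spread below is that between animals and arrays together.

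Skeletal muscle is a mosaic of slow fibres, which contract slowly and rely on mitochondrial respiration, and fast fibres, which contract rapidly and draw more on glycogen. Each kind builds its sarcomere from its own isoforms: in slow fibres the beta myosin heavy chain MYH7 forms the thick filament motor together with the light chains MYL2 and MYL3, and the slow troponins TNNC1, TNNI1 and TNNT1 sit with the tropomyosin TPM3 on the thin filament, where they switch contraction with calcium. Longissimus of the pig is a mostly fast, glycolytic muscle, in which slow fibres lie in clusters.

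All probes are 60 bases long, and no run of 20 or more bases of any of the 34 was shared with a probe of another gene on the array. Positions below count from the start of the transcript that the array annotation gives for the probe, and no genome coordinates were used. The following 4 probes of MYH7 are shown because they bracket its behaviour: probes 4 and 5 by signal lie at positions 5245 and 5242 and share the 41 bases in capitals, while probes 6 and 8, at positions 3242 and 1888, departed most from the other MYH7 probes.
MYH7 probe 4: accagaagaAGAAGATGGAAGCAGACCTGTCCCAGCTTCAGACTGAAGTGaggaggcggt
MYH7 probe 5: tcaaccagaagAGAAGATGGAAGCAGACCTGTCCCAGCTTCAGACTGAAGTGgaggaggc
MYH7 probe 6: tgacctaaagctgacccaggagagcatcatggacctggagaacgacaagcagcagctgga
MYH7 probe 8: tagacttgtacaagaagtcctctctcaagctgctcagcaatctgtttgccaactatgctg

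The TPM3 probes are shown because they fell into a bright and a dim pair. Probes 1 and 2, at positions 295 and 400, gave strong signals. Probes 3 and 4, at positions 556 and 551, gave weak ones and share the 49 bases in capitals.
TPM3 probe 1: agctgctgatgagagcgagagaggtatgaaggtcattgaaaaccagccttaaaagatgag
TPM3 probe 2: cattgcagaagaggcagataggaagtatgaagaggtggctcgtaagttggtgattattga
TPM3 probe 3: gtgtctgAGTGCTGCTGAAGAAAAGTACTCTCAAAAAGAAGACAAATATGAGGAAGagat
TPM3 probe 4: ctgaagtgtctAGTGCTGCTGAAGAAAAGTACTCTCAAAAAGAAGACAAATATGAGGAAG

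The probes of MB, CSRP3 and TNNC1, each the only one of its gene, carry all that is said of these genes below. The brighter MYL2 probe is shown because the array names it only as MLC2V.
MB: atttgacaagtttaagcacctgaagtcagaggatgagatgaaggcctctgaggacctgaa
CSRP3: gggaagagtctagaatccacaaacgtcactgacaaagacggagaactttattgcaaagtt
TNNC1: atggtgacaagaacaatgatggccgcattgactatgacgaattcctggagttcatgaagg
MYL2: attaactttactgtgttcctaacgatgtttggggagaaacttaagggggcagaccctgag

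Levels are log2 intensities with the 75th percentile of each array set to 0. Probes differ in how strongly they bind, so levels were compared between pigs and never between genes. The share of spots well above background ranged from 41.6% to 79.0% over the 23 arrays, no spot was saturated, and the correlation between any 2 arrays lay between 0.937 and 0.988. The tissue label was borne out by its markers: 5 of 8 skeletal muscle fibre genes had a kept and named probe, ACTA1, CKM, DES, TCAP and MYOT, and their mean level lay between 8.95 and 9.50 in every pig. The 6 slides each held pigs of all 3 groups, and 12 and 11 arrays were scanned on 2 days.

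No probe of the slow fibre genes differed between the groups after adjustment. Of the 34 probes, 0 passed adjusted p 0.05 (limma, Benjamini-Hochberg over 27799 probes) in low-RFI against high-RFI pigs, where 0.122% of all probes passed. In restricted against high-RFI pigs 0 passed against 0.0036% of all probes, in low-RFI against restricted pigs 0 against 0.162%, and in the F test over the 3 groups 0 against 0.137%. At an unadjusted p under 0.05 the counts were 0, 1 and 7 of 34 for the pairwise comparisons, beside 11.1%, 9.76% and 10.2% of all probes, and 0 for the F test, beside 12.5%. The groups overlapped for all 34 probes in each comparison, whereas 0.353%, 0.0791% and 0.227% of all probes did not overlap. In bulk muscle RNA, fewer slow fibres and less RNA per slow fibre cannot be told apart.

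For the brightest probe of each gene, the median difference over the 9 genes was -0.06 on the log2 scale in low-RFI against high-RFI pigs, 0.04 in restricted against high-RFI pigs and -0.04 in low-RFI against restricted pigs. The medians over all probes were 0.02, 0.01 and 0.02. Of the 9 genes, 3 were higher and 6 lower in low-RFI than in high-RFI pigs, 5 higher and 4 lower in restricted than in high-RFI pigs, and 2 higher and 7 lower in low-RFI than in restricted pigs, where 55.3%, 53.1% and 54.7% of all probes were higher. These counts turned on the scaling of the arrays: after quantile normalization 1, 4 and 0 of the 9 genes were higher, and after normexp background correction, which moved the median of all probes to 0.08, 0.21 and -0.14, 0, 0 and 9. On these brightest probes the 95% intervals of MYH7, MYL2, TNNC1, TNNT1 and TPM3 stayed between 0.761-fold and 1.26-fold in all 3 comparisons. Those of TNNI1 and MB ran from 0.685-fold to 1.38-fold and from 0.683-fold to 1.20-fold, and those of CSRP3 and MYOZ2 from 0.340-fold to 1.40-fold and from 0.519-fold to 1.74-fold. Some dimmer probes had wider intervals. They ran from 0.566-fold to 1.63-fold on MYH7 probe 6, from 0.574-fold to 1.54-fold on MYH7 probe 8 and from 0.613-fold to 1.29-fold on TPM3 probe 4. These intervals hold for the 75th percentile scaling: after normexp background correction the median difference over the 9 genes was -0.29, -0.78 and 0.54 in the 3 comparisons, and TPM3, for example, lay at -0.89 in restricted against high-RFI pigs.

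**Figure D1:**
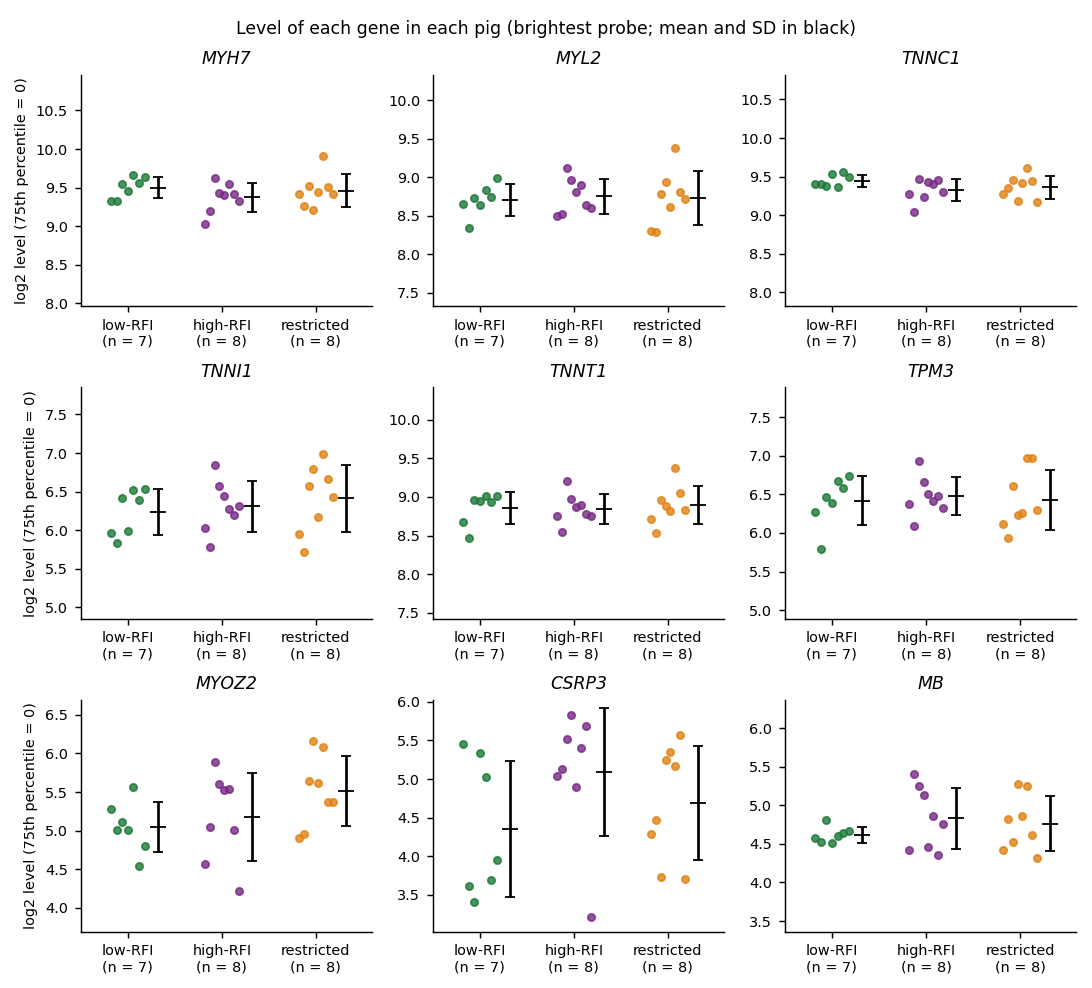
Log2 level (y axis, 75th percentile of the array = 0; every panel spans 3 log2 units) of the brightest probe of each gene in each pig, by group (x axis), with the group mean and SD in black. The groups overlap in every panel; TNNC1 pigs lie within a narrow band, while CSRP3 pigs range from 3.21 to 5.83 and the MB values of low-RFI pigs lie closer together than those of the other groups.

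The heavy chain MYH7, the motor protein of the slow thick filament, was nearly level across the groups. On its brightest probe the low-RFI pigs ranged from 9.32 to 9.66 with a median of 9.55, the high-RFI pigs from 9.03 to 9.62 with a median of 9.42, and the restricted pigs from 9.22 to 9.90 with a median of 9.43. All 3 ranges overlapped, and the highest value, of restricted replicate 6, stood apart from the next restricted pig at 9.53. The group means were 9.50 ± 0.14 (SD, n = 7), 9.37 ± 0.19 (SD, n = 8) and 9.46 ± 0.21 (SD, n = 8). Low-RFI pigs exceeded high-RFI pigs by 0.13 (SE 0.10, limma adjusted p = 0.708), which is 1.09-fold with a 95% interval from 0.944 to 1.26.

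The 8 MYH7 probes followed the same pigs, but not by the same amount. Correlations of the pigs' deviations from their group means between any 2 probes lay between 0.75 and 0.995 over 23 pigs. The within-group SD was 0.18 and 0.21 for probes 1 and 2, with mean levels of 9.44 and 9.02, between 0.32 and 0.40 for probes 3 to 7, with mean levels from 7.63 down to 5.14, and 0.64 for probe 8, with a mean level of 3.77. The lowest and the highest pig differed 1.84-fold on probe 1 and 2.96-fold on probe 7, so that the size of a difference between pigs depended on the probe. On 6 of the 8 probes restricted replicate 6 was the highest pig, and on 6 high-RFI replicate 1 was the lowest.

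Probe 6 of MYH7 was the one probe of the gene with an unadjusted p under 0.05. Its level was 5.70, 5.81, 5.97 and 6.11 in restricted replicates 2, 8, 4 and 1, and 6.35 to 6.99 in the other 4 restricted pigs. The high-RFI pigs ranged from 6.01 to 7.14 with a median of 6.86, and the low-RFI pigs from 6.24 to 6.92 with a median of 6.67. The restricted pigs were lower than the high-RFI pigs by -0.43 (SE 0.19, unadjusted p = 0.036, limma adjusted p = 0.464), with overlapping ranges. On the other 7 probes the same difference lay between -0.13 and 0.13. Probe 8 was set apart by 1 pig: high-RFI replicate 3 read 5.72, and the other high-RFI pigs ranged up to 3.92.

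**Figure D2:**
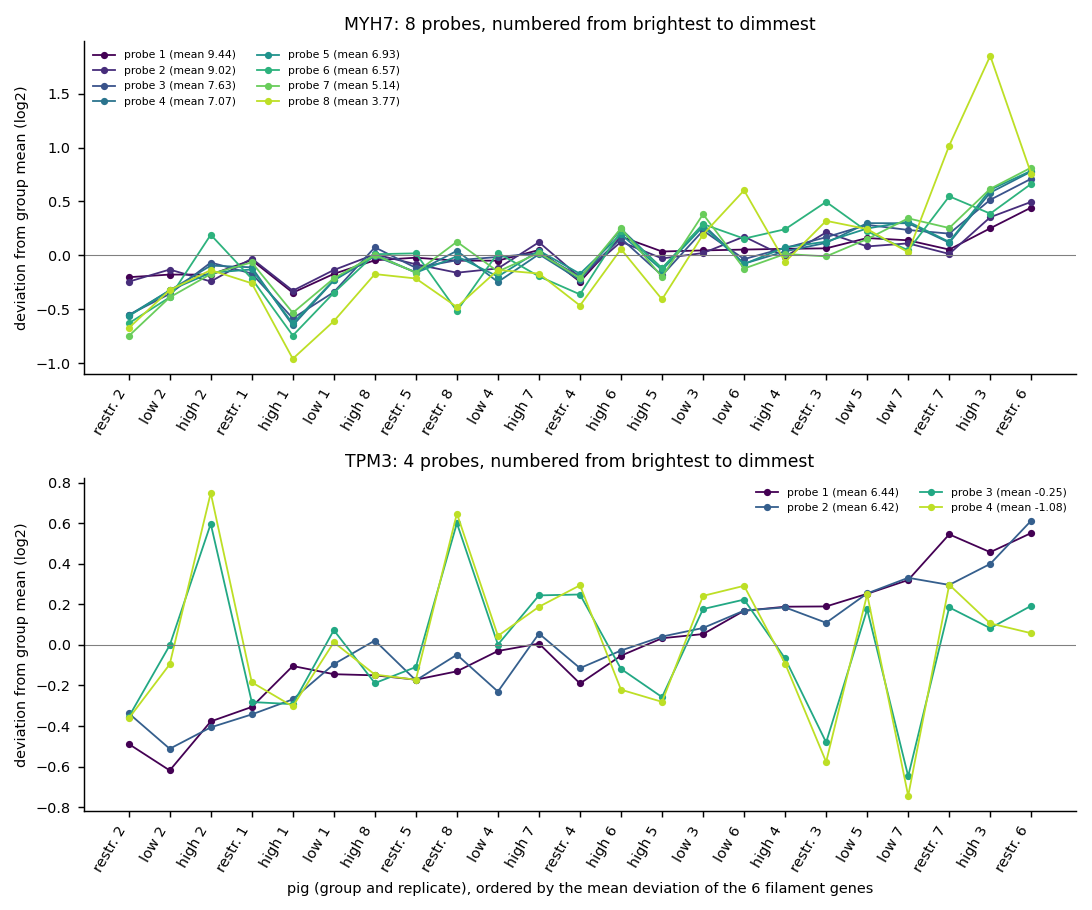
Deviation of each pig from its group mean (y axis, log2) for the 8 probes of MYH7 (top) and the 4 probes of TPM3 (bottom), with the 23 pigs (x axis) ordered by the mean deviation of the 6 filament genes and the probes coloured from brightest to dimmest. The MYH7 lines rise together, with the dimmest probe swinging most; the bright TPM3 probes 1 and 2 follow the order of the pigs and the dim probes 3 and 4 follow each other but not the order.

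MYL2, the regulatory light chain that binds the neck of the slow myosin motor, ranged from 8.34 to 8.99 in low-RFI pigs (median 8.73), from 8.50 to 9.12 in high-RFI pigs (median 8.72) and from 8.29 to 9.37 in restricted pigs (median 8.75). The medians lay within 0.03 of each other and the restricted pigs held both the lowest and the highest value. The differences were -0.05, -0.03 and -0.02 in the 3 comparisons (SE 0.13 to 0.14, limma adjusted p at least 0.939). Its other probe followed it closely, with a correlation of 0.99 over 23 pigs.

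On the thin filament, TNNC1, the troponin subunit that binds calcium in slow and cardiac muscle, was the steadiest of the 9 genes on their brightest probes. The low-RFI pigs ranged from 9.36 to 9.56 (median 9.41), the high-RFI pigs from 9.04 to 9.47 (median 9.35) and the restricted pigs from 9.16 to 9.61 (median 9.39). The low-RFI pigs lay in the upper part of the range of the other pigs. Low-RFI pigs exceeded high-RFI pigs by 0.12 (SE 0.08, limma adjusted p = 0.608), 1.09-fold with an interval from 0.971 to 1.22. Its within-group SD of 0.13 was smaller than that of 96.5% of all probes, whose median SD was 0.30. Its mean level was also above that of 99.5% of all probes. Other bright muscle probes had SDs of similar size, with TNNC2 at 0.12, DES at 0.13 and ACTA1 at 0.14, while MYH1 and TNNT3 had 0.22 and 0.28. The small SD was therefore not particular to TNNC1.

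TNNI1, the inhibitory subunit of slow troponin, ranged from 5.83 to 6.54 in low-RFI pigs (median 6.39), from 5.79 to 6.84 in high-RFI pigs (median 6.29) and from 5.72 to 6.98 in restricted pigs (median 6.50). The low-RFI pigs fell into 3 pigs at or under 5.99 and 4 pigs from 6.39 up, all within the range of the other groups. Its differences were -0.07, 0.10 and -0.17 (SE 0.17 to 0.18, limma adjusted p at least 0.810).

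TNNT1, the subunit that ties slow troponin to tropomyosin, ranged from 8.47 to 9.01 in low-RFI pigs (median 8.95), from 8.55 to 9.21 in high-RFI pigs (median 8.82) and from 8.53 to 9.37 in restricted pigs (median 8.86). Low-RFI replicate 2 was the lowest pig on all 4 probes and restricted replicate 6 the highest on all 4. The difference between low-RFI and high-RFI pigs was 0.01 (SE 0.12, limma adjusted p = 0.988), 1.01-fold with an interval from 0.852 to 1.19.

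TPM3, the tropomyosin of slow fibres, ranged on its brightest probe from 5.80 to 6.74 in low-RFI pigs (median 6.47), from 6.10 to 6.93 in high-RFI pigs (median 6.45) and from 5.94 to 6.98 in restricted pigs (median 6.27). Its differences were -0.06, -0.05 and -0.01 (SE 0.16, limma adjusted p at least 0.939). The dim probes behaved otherwise. Their mean levels were -0.25 and -1.08, they correlated with each other at 0.98 over 23 pigs, and with the bright pair at -0.03 to 0.02.

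On dim TPM3 probe 3 the low-RFI pigs ranged from -1.0 to -0.12, the high-RFI pigs from -0.37 to 0.52 and the restricted pigs from -0.83 to 0.25. The values were lowest in low-RFI replicate 7 and highest in high-RFI replicate 2, and all groups overlapped. The differences from high-RFI pigs were -0.27 in low-RFI and -0.27 in restricted pigs (SE 0.16, limma adjusted p = 0.580 and 0.617). TPM3 is also made in cells other than muscle fibres. Over the 23 pigs probe 3 moved with the mean level of the leukocyte markers, at r = 0.69 and rho = 0.69 (permutation p = 0.00061, adjusted p = 0.0085 over 209 relations of slow fibre probes with list means), and probe 4 at r = 0.71 and rho = 0.71 (permutation p = 0.00036, adjusted p = 0.0064). Without the 2 pigs farthest from the median of the list these r were 0.63 and 0.67, and for the bright probes 1 and 2 r was 0.19 and 0.07 over all pigs. With the endothelium and pericyte markers probe 3 gave r = 0.56 and rho = 0.44 (permutation p = 0.0115, adjusted p = 0.069), and 0.19 without 2 pigs, so that this relation rests on those pigs. Of the leukocyte list 5 of 10 genes were measured, with the mean level between -1.98 and -0.97 in low-RFI pigs, -1.55 and -0.21 in high-RFI pigs and -2.05 and -0.14 in restricted pigs. In low-RFI against high-RFI pigs 5 of the 5 had a negative difference, with a median of -0.37, and in restricted against high-RFI pigs 4 of 5, with a median of -0.24, or 2 of 5 with a median of 0.13 after normexp background correction, and 0 passed. CD14, CD163 and C1QA were well above background on all 23 arrays, S100A12 on 21 and S100A8 on 14. Their within-group SDs were 0.21, 0.67, 0.50, 0.78 and 1.07 in that order. The dim gene S100A8 therefore had the largest swing in the list mean, and the r of single markers with the TPM3 probes was not computed. The part of other cell types in the dim probes was not tested.

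At the Z-disc, MYOZ2, a calcineurin-binding protein of slow fibres, had the most probes of the set with an unadjusted p under 0.05. Low-RFI pigs ranged from 4.54 to 5.56 (median 5.01), high-RFI pigs from 4.22 to 5.88 (median 5.29) and restricted pigs from 4.91 to 6.16 (median 5.50). Restricted replicates 4 and 6, at 6.16 and 6.08, lay above every pig of the other groups, and the remaining restricted pigs lay among them. Low-RFI pigs differed from restricted pigs by -0.47 (SE 0.23, unadjusted p = 0.055, limma adjusted p = 0.501), a 0.723-fold level with an interval from 0.519 to 1.01. Restricted pigs differed from high-RFI pigs by 0.34 (SE 0.22, limma adjusted p = 0.667).

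The 11 MYOZ2 probes gave this difference between low-RFI and restricted pigs at -0.51 to -0.46, and 7 of them had an unadjusted p under 0.05. They are no separate evidence, since their correlations over pigs lay between 0.962 and 0.996 and several overlap in sequence. All 7 probes behind the count of 7 given above were of MYOZ2. The difference was -0.14 over the pigs scanned on day 1 and -0.85 over those of day 2 (limma adjusted p = 1 on day 2). Each group had 4 pigs on each day, apart from the low-RFI pigs of day 2, which were 3. The restricted minus high-RFI difference of MYOZ2 was -0.10 on day 1 and 0.78 on day 2.

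CSRP3, a LIM-domain protein of the Z-disc also known as muscle LIM protein, varied more between pigs than any other of the 9 genes on their brightest probes. High-RFI pigs ranged from 3.21 to 5.83 (median 5.27), restricted pigs from 3.70 to 5.58 (median 4.82) and low-RFI pigs from 3.41 to 5.45 (median 3.95). Low-RFI replicates 2, 3, 6 and 7, high-RFI replicate 8 and restricted replicates 3 and 8 read 3.95 or less, and the next pig up read 4.29. The spread between the lowest and the highest pig was 6.14-fold, and the within-group SD of 0.81 was exceeded by 3.01% of all probes.

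The mean CSRP3 level was 4.35 ± 0.88 (SD, n = 7) in low-RFI, 5.09 ± 0.82 (SD, n = 8) in high-RFI and 4.69 ± 0.74 (SD, n = 8) in restricted pigs. Low-RFI pigs differed from high-RFI pigs by -0.74 (SE 0.40, unadjusted p = 0.075, limma adjusted p = 0.509), a 0.600-fold level with an interval from 0.340 to 1.06. The values were -0.86 within scan day 1 and -0.65 within day 2, and -0.70 without the arrays of slide 3. Restricted pigs differed from high-RFI pigs by -0.40 (SE 0.38, limma adjusted p = 0.813), with -0.91 on day 1 and 0.11 on day 2. No difference between groups was detectable for CSRP3 beyond this spread between pigs.

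Myoglobin, the oxygen store of oxidative fibres, gave similar means but unequal spreads. MB ranged from 4.52 to 4.81 in low-RFI pigs (median 4.61), from 4.36 to 5.40 in high-RFI pigs (median 4.81) and from 4.32 to 5.27 in restricted pigs (median 4.72). The low-RFI values lay inside the ranges of both high-RFI groups. The SD was 0.10 in low-RFI, 0.40 in high-RFI and 0.36 in restricted pigs, and this difference in spread was not tested. Low-RFI pigs differed from high-RFI pigs by -0.21 (SE 0.16, limma adjusted p = 0.688), a 0.863-fold level with an interval from 0.683 to 1.09.

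**Figure D3:**
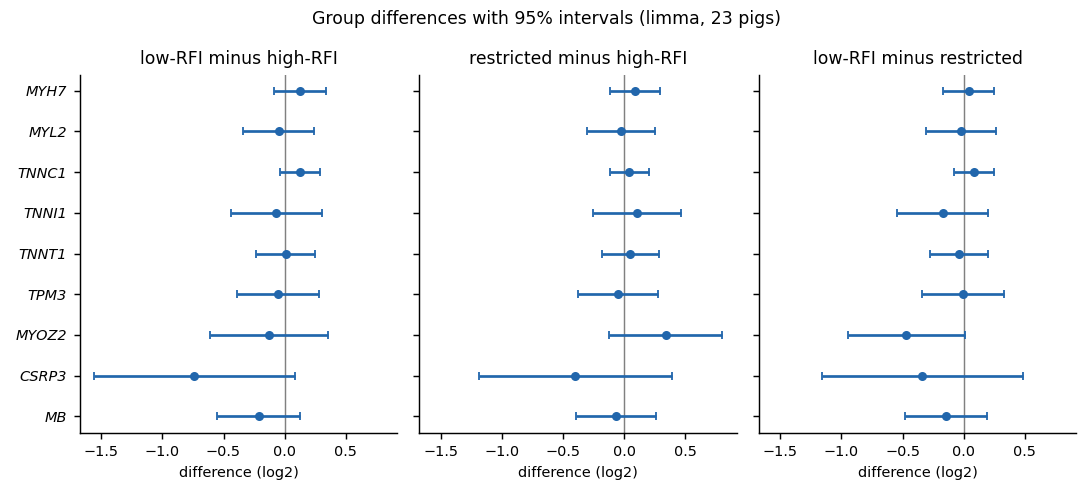
Difference between groups (x axis, log2) for the brightest probe of each of the 9 genes (y axis) in the 3 comparisons, with points for the limma estimate over 23 pigs and bars for the 95% interval. Every interval includes 0; those of CSRP3 and MYOZ2 are the widest.

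Within scan days, 0 of the 9 genes passed adjusted p 0.05 in any comparison, and the same held without the arrays of slide 3, among them the 3 arrays with the lowest shares of spots well above background. The 9 differences between low-RFI and high-RFI pigs ranged from -0.86 to 0.15 on day 1, from -0.65 to 0.13 on day 2 and from -0.70 to 0.13 without slide 3.

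The slow filament genes varied together from pig to pig within groups. After removal of group means, 36 pairs of the 9 genes were correlated over 23 pigs, each with a permutation test of 100000 resamples within groups, and 17 pairs passed a Benjamini-Hochberg adjusted p of 0.05 on Pearson's r and 14 on Spearman's rho. Among the 15 pairs of the 6 filament genes MYH7, MYL2, TNNC1, TNNI1, TNNT1 and TPM3, r ranged from 0.37 to 0.94 with a median of 0.77, and 13 passed. These 15 r ranged from 0.55 to 0.98 within scan day 1, from 0.20 to 0.93 within day 2 and from 0.24 to 0.93 with slide removed. All genes of a pig were read on 1 array, so that they share its labelling and scaling as well as the animal.

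The tightest pair was TNNT1 with TPM3, at r = 0.94 and rho = 0.93 (permutation p = 1e-05, the smallest these resamples can give, adjusted p = 4.5e-05). Its r was 0.91 without the 2 pigs farthest from the median, 0.92 with slide removed, and 0.98 and 0.91 within scan days. MYL2 with TNNI1 gave r = 0.92 and rho = 0.92, and MYL2 with TNNT1 gave 0.91 and 0.86, each at the same permutation p. MYH7 with TNNT1 gave r = 0.82 and rho = 0.81. These genes code for different parts of the slow sarcomere, on the thick and the thin filament.

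TNNC1 was the exception among the filament genes. It correlated with MYH7 at 0.64 (rho 0.55, permutation p = 0.0029, adjusted p = 0.0087) and with TNNI1 at 0.37 (rho 0.26, permutation p = 0.114, adjusted p = 0.179). With TNNT1 and TPM3 its r was 0.57 each (rho 0.41 and 0.52, permutation adjusted p = 0.018 and 0.016 on r). After quantile normalization its r with MYH7 was 0.06, and 0 of its 8 pairs passed. After median centring its r with MYH7 was 0.81, and 5 of its 8 pairs passed. Over pigs its level also moved with the mean of the fast fibre genes, at r = 0.66 and rho = 0.60 (permutation p = 0.0029, adjusted p = 0.022 over the 209 relations), and against that of the adipocyte markers, at r = -0.68 and rho = -0.65 (permutation p = 0.00087, adjusted p = 0.0096). Without 2 pigs these were 0.62 and -0.59. Its largest r with any list mean was that with the regulators of the slow fibre program, at r = 0.73 and rho = 0.80 (permutation p = 0.0001, adjusted p = 0.0035), and 0.69 without 2 pigs. The mean of the 7 measured adipocyte markers of 8 ranged from 0.23 to 1.68 in low-RFI, -0.04 to 2.70 in high-RFI and 0.28 to 2.05 in restricted pigs, and its part in TNNC1 was not tested. MYH7 moved with the fast fibre mean as well, at r = 0.65 and rho = 0.55 on its brightest probe (permutation p = 0.0029, adjusted p = 0.022), 0.50 without 2 pigs, and at r = 0.69 and rho = 0.65 on probe 2 (permutation p = 0.0015, adjusted p = 0.013), 0.62 without 2 pigs. The largest r of the brightest MYH7 probe was with the skeletal muscle fibre mean, at r = 0.78 and rho = 0.75 (permutation p = 9e-05, adjusted p = 0.0035), and 0.62 without 2 pigs. With the mean of the other slow or oxidative fibre genes it gave r = 0.68 and rho = 0.61 (permutation p = 0.0012, adjusted p = 0.012), and 0.49 without 2 pigs. MYL2, TNNI1, TNNT1, TPM3 and MYOZ2 gave 0.85, 0.76, 0.74, 0.64 and 0.77 with that mean (permutation adjusted p at most 0.0093), and 0.48 to 0.79 without 2 pigs. With the fast fibre mean these 5 gave 0.20, 0.10, 0.25, 0.27 and 0.03. MYH7 probes 3, 4, 5 and 7 gave 0.71 to 0.76 with the slow mean and 0.42 to 0.50 with the fast mean. TNNC1 gave 0.33 with the slow mean.

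MYOZ2 passed in 4 of its 8 pairs, with MYL2 at 0.69, TNNI1 at 0.58, CSRP3 at 0.56 and TNNT1 at 0.52, and on rho with MYL2 and TNNI1 alone. CSRP3 passed only with MYOZ2 (permutation p = 0.00595, adjusted p = 0.0164), with rho = 0.45 (adjusted p = 0.0641) and r = 0.40 without the 2 farthest pigs. With slide removed, the r of CSRP3 with the 8 other genes rose from between 0.10 and 0.56 to between 0.40 and 0.71. MB passed in 0 of 8 pairs, with r between -0.11 and 0.48. These counts depended on the scaling. After median centring MB passed in 2 of 8 pairs, with MYL2 at 0.58 and MYOZ2 at 0.57, and MYOZ2 in 7 of 8. After quantile normalization the counts were 0 for MB and 4 for MYOZ2.

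**Figure D4:**
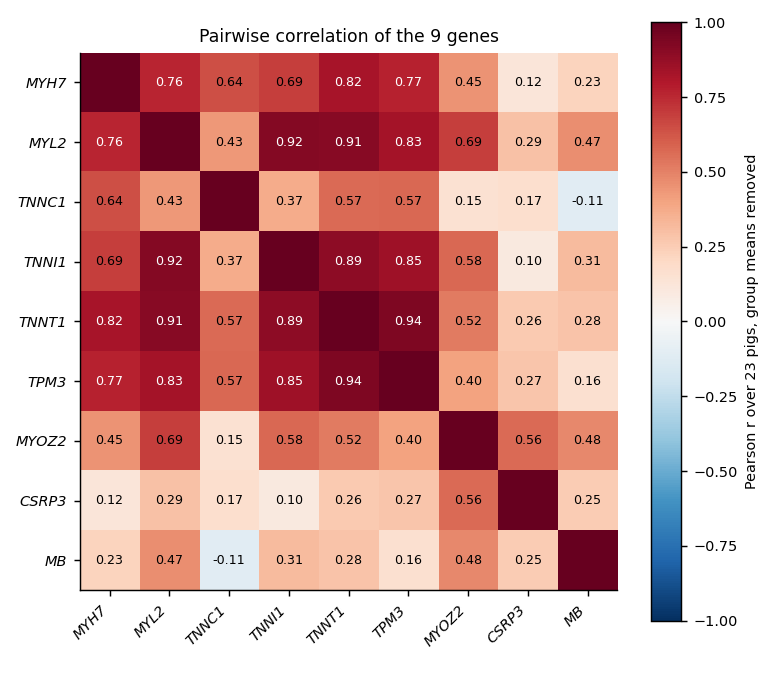
Pearson r over 23 pigs, after removal of group means, for each pair of the 9 genes (both axes; colour and number give r). MYH7, MYL2, TNNI1, TNNT1 and TPM3 form a block with r from 0.69 to 0.94, TNNC1 and MYOZ2 join it in part, and CSRP3 and MB stand largely outside it.

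The order of the pigs can be read from the mean deviation of the 6 filament genes from their overall means. It ran from -0.35 in restricted replicate 2 and -0.33 in high-RFI replicate 2 to 0.34 in high-RFI replicate 3 and 0.51 in restricted replicate 6. Each group had pigs at both ends: low-RFI pigs ran from low-RFI replicate 2 to low-RFI replicate 7 at 0.21. Restricted replicate 6 and low-RFI replicate 7 were also the arrays with the smallest shares of spots well above background, 45.8% and 41.6%. Of the 9 genes, MYL2 had the Pearson r of largest size with that share (r = -0.44, rho = -0.24, permutation p = 0.042, adjusted p = 0.237), and its r was -0.08 without the 2 farthest arrays. By rank it was TNNI1, at rho = -0.30 (r = -0.38, permutation p = 0.18 for rho and 0.079 for r, adjusted p = 0.875 and 0.237).

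Of 2773 named genes outside the set, those most like the brightest MYH7 probe over 23 pigs were COX2, a mitochondrial subunit of cytochrome c oxidase, at r = 0.85, then ACTA1 and ARPC1B at 0.75, SLN at 0.73, ENO3 at 0.70, BIN1 and GAPDH at 0.69 and GPD1 at 0.67. The mean levels of these 8 probes were all 8.62 or higher, like that of the MYH7 probe. Those most unlike it were MS4A2 at -0.69, HPD at -0.68, MED23 at -0.64 and LIPC at -0.62, with mean levels between -3.73 and -1.49. Over all probes the median r with MYH7 was -0.02, and 2.72% exceeded 0.5.

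MYH7 probe 3, dimmer and taken after the data were seen, gave another list. It was led by ATP2A2, the slow calcium pump, at 0.71, then COX2 at 0.68, IDH2 at 0.68, FSCN1 at 0.68, and LDHB and PDLIM1 at 0.64, and only COX2 stood in both. The genes most like MB were MDH1 at 0.85, ATP5A1 at 0.84, ATP5G1 at 0.81, the mitochondrial creatine kinase CKMT2 at 0.79 and NDUFA4 at 0.79. Over all probes the median r with MB was -0.01, and 3.55% exceeded 0.5.

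Of 22 other genes of slow or oxidative fibre structure, 13 were measured, and 0 passed adjusted p 0.05 (limma) in any comparison. In low-RFI against high-RFI pigs 3 had a positive and 10 a negative difference, with a median of -0.15, in restricted against high-RFI pigs 8 and 5, with a median of 0.04, and in low-RFI against restricted pigs 3 and 10, with a median of -0.13. After normexp background correction the positive counts were 2, 2 and 11. The smallest p belonged to CA3, a carbonic anhydrase of slow fibres, at 0.31 (SE 0.11, unadjusted p = 0.0080, limma adjusted p = 0.272), and to PLN, the inhibitor of the slow calcium pump, at -0.72 (SE 0.26, unadjusted p = 0.010, limma adjusted p = 0.287). Against restricted pigs the low-RFI values were 0.27 for CA3 and -0.60 for PLN (limma adjusted p = 0.382 and 0.431). In restricted against high-RFI pigs the smallest p were those of XIRP1, at 0.75, and LDHB, at -0.12 (limma adjusted p = 0.774 and 0.816).

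Of 32 regulators of the slow fibre program 15 were measured and 0 passed in any comparison. The smallest p in low-RFI against high-RFI pigs were those of PRKAA2, a catalytic subunit of the energy sensor AMPK, at 0.22, and of PROX1 at -0.27 (limma adjusted p = 0.453 and 0.481). In restricted against high-RFI pigs they were those of EYA4, at 0.33, and PROX1, at -0.21 (limma adjusted p = 0.446 and 0.646), and in low-RFI against restricted pigs those of PPP3CA, a calcineurin catalytic subunit, at 0.15 and of EYA4 at -0.22 (limma adjusted p = 0.648 and 0.656).

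The fast fibre counterparts gave 11 measured genes of 15 and 0 that passed. All 11 had a positive difference in low-RFI against high-RFI pigs, with a median of 0.16, where 55.3% of all probes were positive, but 9 after quantile normalization and 1 after normexp background correction, with medians of 0.01 and -0.09. Positive differences were not particular to the fast genes. Of the 5 measured skeletal muscle fibre genes 4 were positive in this comparison, with a median of 0.15. Among the 9 slow genes 3 were positive, MYH7 at 0.13, TNNC1 at 0.12 and TNNT1 at 0.01. The other 6 were negative, MYL2 at -0.05, TPM3 at -0.06, TNNI1 at -0.07, MYOZ2 at -0.13, MB at -0.21 and CSRP3 at -0.74. MYH1, a fast myosin heavy chain, differed by 0.26 (SE 0.12, limma adjusted p = 0.394) and TPM1 by 0.18 (SE 0.08, limma adjusted p = 0.410). In restricted against high-RFI pigs the median was 0.07, with TPM1 at 0.09 and ATP2A1 at 0.15, and in low-RFI against restricted pigs it was 0.08, with MYH1 at 0.22 and MYH2 at 0.25. These medians were 0.02 and -0.02 after quantile normalization, with 7 and 5 of 11 genes positive, and -0.78 and 0.67 after normexp background correction, with 0 and 11 positive. In the same low-RFI against high-RFI comparison the 7 measured adipocyte markers had negative differences, 6 of 7 after normexp background correction, with a median of -0.72 and 0 that passed, and their part in the differences of the slow genes was not tested. Of the heart muscle list only TNNI3, of 7 genes, was measured.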

How the data were processed

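The deposited scanner files hold an intensity per spot, which Feature Extraction 10.7.3.1 had corrected for background on each array alone, per the file headers. The mean and local background intensity columns served only as alternatives. The deposited value table held log2 values of 26410 probes with a median of 0 in each column and equalled the log2 processed signal minus a constant per array. R 2.10.0 stands in the submitters' processing notes. The log2 processed signal was centred on the 75th percentile of 43803 non-control spots, spots flagged as non-uniform or outliers were set to missing (484 values), spots of a probe were averaged, and a probe was kept where 1 group had 6 or more arrays well above background (27799 probes). The 3 groups were fitted in limma 3.58.1 under R 4.3.3, without covariates, with Benjamini-Hochberg adjustment over kept probes and a threshold of 0.05; the code was tested on simulated data. Where 1 probe stands for a gene, it is the brightest. Members and lists were chosen with earlier results of these data known. Of the other genes, those past the threshold or with the 2 smallest p per list and comparison were named, with the 8 most and 4 least like MYH7 and 5 most like MB. The headers also gave slide and scan day. The number of arrays limits the precision. Red blood cell markers had 0 of 7 genes measured; leukocyte, fibroblast, endothelium, smooth muscle, adipocyte, skeletal muscle and heart lists gave 0 called genes in any comparison, and the nerve list 1, UCHL1, in low-RFI against restricted pigs (limma adjusted p = 0.039).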

Additional observations from a re-analysis of the deposited data

Results flagged for a closer look

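Within groups of 7 or 8 pigs, the highest or lowest pig stood apart from the nearest other pig by Dixon's 95% limit in 7 of 102 combinations of probe and group. Chance sets about 1 in 20 groups apart. The 102 combinations are not separate draws, since most probes of a gene follow the same pigs, so the count cannot be set against that share. CSRP3 was 3.21 in high-RFI replicate 8, where the next high-RFI pig read 4.90. MYH7 on its brightest probe was 9.90 in restricted replicate 6, above 9.53 in the next restricted pig, and on its dimmest probe 5.72 in high-RFI replicate 3, above 3.92 in the next. TNNT1 on its dimmest probe was 6.23 in low-RFI replicate 2, with the next pig at 6.78. The dim TPM3 probes 3 and 4, which share 49 bases, read -1.0 and -1.94 in low-RFI replicate 7, below -0.35 and -1.29 in the next low-RFI pigs, and probe 4 read -0.13 in high-RFI replicate 2, above -0.69.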

How the results depend on the processing

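No slow fibre probe was called under any alternative, and of 972 gene differences recomputed none passed adjusted p 0.05, the lowest being 0.195. Leaving out slide 3, fitting each scan day alone, counting pairs on rho, leaving out genes matched by accession and rescaling the gene lists were chosen after the data were seen. The number of correlated pairs stayed between 14 and 23. Over all probes, the counts of low-RFI against high-RFI pigs (34), restricted against high-RFI pigs (1), low-RFI against restricted pigs (45) and any group (38) were in that order as follows. Normexp background gave 0, 0, 0 and 0. No filter gave 22, 0, 18 and 22, trend and robust variance 52, 0, 76 and 92, arrays without slide 3 18, 0, 15 and 20, scan day 1 alone 1, 0, 1 and 1, and scan day 2 alone 1, 0, 1 and 1. Slide as a block gave 19, 0 and 25 for the pairwise comparisons, and the filter on all arrays 18 for the first and 67 for any group. The deposited table gave 20 for the first and 21 for the third, median centring 0 for the second and 23 for the third, only the groups compared 0 and 25, normexp on negative controls 0 for the second and scan day as a block 3. Leaving out 1 pig in turn gave 22 to 40, 0 to 7, 18 to 68 and 24 to 70.

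Over whole arrays, the correlations of same-numbered pigs of different groups ran from -0.30 to 0.33, and 7 of 22 were over 0.1. Their median was 0.05, against -0.01 for pigs of different groups and numbers. Such correlations cannot tell whether the number marks paired pigs. With the number as a replicate block the count was 0 for restricted against high-RFI pigs, 20 for low-RFI against restricted pigs and 19 for any group, with 0 slow fibre probes.

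Signs of small differences turned, none of them called, and the cause was not tested. Under normexp background the median gene difference was -0.78 between restricted and high-RFI pigs, and 0.54 between low-RFI and restricted pigs. There the first comparison gave MYH7 -0.13, TNNC1 -0.12 and TNNT1 -0.23, the second MYH7 -0.74, MYOZ2 -0.51, TNNC1 -0.77, TNNI1 -0.73 and TNNT1 -0.78, and the third CSRP3 0.28, MB 0.49, MYL2 0.57, MYOZ2 0.14, TNNI1 0.41, TNNT1 0.54 and TPM3 0.60. Quantile normalization gave TNNC1 -0.0036 and TNNT1 -0.14 in the first comparison, TNNC1 -0.0020 in the second, and MYH7 -0.050 and TNNC1 -0.0016 in the third. TNNT1 in the first was also -0.0048 with normexp on negative controls, -0.0008 in the deposited table, -0.0025 with the replicate block and -0.060 as the mean of its probes. Median centring gave MYL2 0.025 and TPM3 0.0032 in the second, and slide as a block MYL2 0.0050 and TPM3 0.0006 in the third. Leaving out 1 pig gave MYL2 -0.10 to 0.012, TNNI1 -0.14 to 0.0074, TNNT1 -0.034 to 0.073 and TPM3 -0.11 to 0.046 in the first, MB -0.14 to 0.013, MYL2 -0.12 to 0.036, TNNC1 -0.0012 to 0.068, TNNT1 -0.020 to 0.10 and TPM3 -0.13 to 0.021 in the second, and MYL2 -0.086 to 0.069, TNNT1 -0.092 to 0.028 and TPM3 -0.078 to 0.095 in the third. TPM3 probe 4 and the leukocyte markers lie nearest to background, which limits what they can show.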
